A study of Homo sapiens with 4 samples.

Results

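The subject is the 647 regions of N6-methyladenosine (m6A) whose centre lay in an internal coding exon, that is, in neither the first nor the last exon of the transcript that the authors' HOMER annotation named. Members were chosen by that annotation alone, as coding-exon entries of the form exon i of n with i above 1 and below n. They made up 6.54% of the 9900 deposited regions (95% exact binomial interval 6.06 to 7.04%) and 33.8% of the 1913 regions centred in coding exons (31.7 to 36.0%). The study recovered methylated RNA with an m6A antibody from wild-type H1, an established human embryonic stem cell line, and gave 2 pull-down and 2 input libraries of total RNA. All libraries were untreated wild type of this 1 line, and nothing read here says whether replicates were separate cultures. The files held 1 intersected set of region positions on hg38 with no height, count or value per library, so no replicate error stands beside any value below. Depth and RNA levels were unknown, so the absence of a region does not show the absence of m6A, and the line's markers could not be checked. All intervals are 95% exact binomial intervals and cover counting error only.

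m6A is placed on nascent messenger RNA by the METTL3-METTL14 methyltransferase complex, mostly at adenosines in a short consensus called DRACH. It is read by proteins such as the YTH family and the IGF2BP proteins, which affect the decay and stability of the transcript. In mammalian messenger RNA it is known to gather in last exons, around stop codons and in unusually long internal exons, while exon junction complexes keep it low near splice junctions of short exons. IGF2BP1, OTX2 and TFAP2C, named in the title of the series, held no internal-exon region. OTX2 held 1 region of another class, and IGF2BP1 and TFAP2C held none. Only 2.96% of all protein-coding genes held an internal-exon region, so its absence from these genes shows no contrast.

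Sequence could be read for the few members that met a RefSeq promoter window, which runs from 250 bases before to 50 after an annotated start site. Of the 647 regions, 10 met such a window, 7 of them at a start site of their own host gene and 3 at that of another gene. The promoter windows gave an orientation for the hosts of only 535 of the 647 regions. Start sites of other hosts can be missing, so these counts are not complete. Only 2 windows lay wholly inside a member, and these are shown because all of their sequence belongs to a region. Capitals mark GGACT, the DNA spelling of the common m6A consensus form GGACU, which was searched on both strands (AGTCC on the other) with no overlap between matches.
PABPN1 window: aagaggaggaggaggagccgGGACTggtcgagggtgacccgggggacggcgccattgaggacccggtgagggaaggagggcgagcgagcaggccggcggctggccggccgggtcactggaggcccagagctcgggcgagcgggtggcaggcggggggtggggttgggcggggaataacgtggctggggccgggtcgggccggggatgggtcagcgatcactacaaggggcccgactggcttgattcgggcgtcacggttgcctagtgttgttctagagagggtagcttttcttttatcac
SLC8A1 window: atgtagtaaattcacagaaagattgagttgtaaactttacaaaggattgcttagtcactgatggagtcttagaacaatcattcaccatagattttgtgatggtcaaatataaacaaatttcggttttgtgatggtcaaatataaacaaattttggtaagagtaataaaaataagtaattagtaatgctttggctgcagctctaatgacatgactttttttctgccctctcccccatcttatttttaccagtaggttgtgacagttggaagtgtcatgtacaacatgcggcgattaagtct
The PABPN1 window is chr14:23321756-23322055 on the plus strand and the SLC8A1 window is chr2:40430255-40430554 on the minus strand, both from RefSeq on GRCh38.p14. Both windows lie inside their own gene, whose 5′ end is at position 23321457 for PABPN1 and 40512435 for SLC8A1. Bases before these start sites are therefore within the gene locus. PABPN1 encodes the nuclear poly(A)-binding protein, and its 3636 bp region was centred in exon 4 of 7. Its window held 1 match, 230 bases before the start site, and was 68.3% G and C. SLC8A1 encodes a sodium-calcium exchanger, and its 2180 bp region was centred in exon 2 of 8. Its window held no match and was 34% G and C. Of the 10 windows, 6 held the 5 letters on either strand, and of all 35116 windows 44.2% did. The windows not shown overlapped their member by only 10 to 235 bp. A match in them can lie outside the region, so these counts give no motif rate for members.

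Internal exons took a growing part of coding-exon regions as the number of exons rose. In transcripts of 3 exons, 39 of 205 regions were internal (19.0%, 13.9 to 25.1%). With 4 to 5 exons the share was 24.0% (88 of 367), with 6 to 9 exons 35.3% (124 of 351) and with 10 to 14 exons 55.8% (116 of 208). It reached 67.8% with 15 to 24 exons (173 of 255) and 72.8% with 25 or more (107 of 147, 64.8 to 79.8%). An equal chance for each exon of the same transcripts would give 33.3% at 3 exons and 94.1% at 25 or more, and each observed interval lay below that value. Exon lengths did not enter this value, so a long exon counts like a short one. Over all 1533 coding regions whose transcript had at least 3 exons, 42.2% were internal (39.7 to 44.7%), against 69.0% by an equal chance. Regions that the annotation placed in UTRs, promoters or transcript ends are separate classes and are not counted in these shares. Some of those can lie in first or last exons, which the equal-chance value weights fully. The named transcripts of internal regions had a median of 12 exons.

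**Figure D1:**
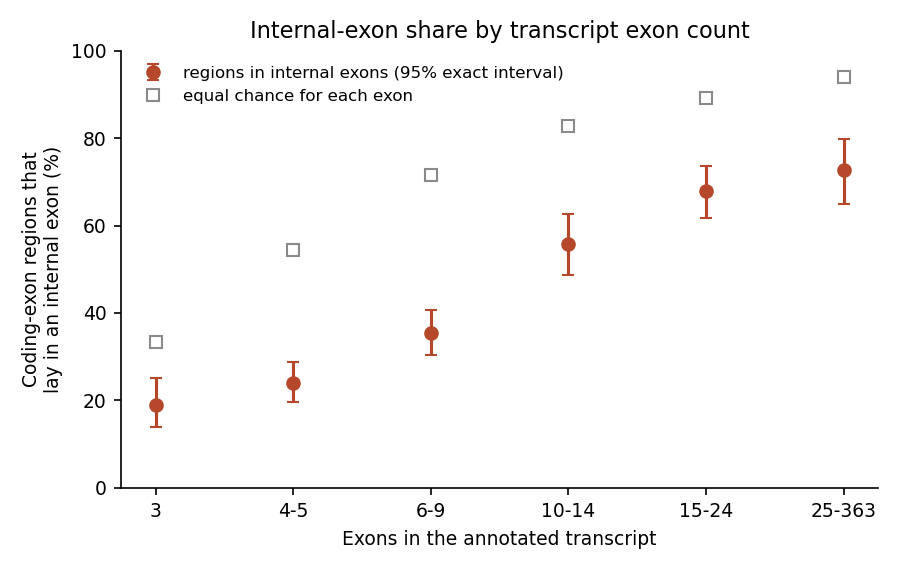
Percent of coding-exon regions that lay in an internal exon (vertical axis) by the number of exons in the annotated transcript (horizontal axis). Filled points with 95% exact intervals are the regions and open squares the value for an equal chance of each exon. The points climb between 19.0% and 72.8% and stay below the squares in all 6 classes.

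Among internal exons, the second exon held more regions than an equal chance gives. Of all 647 regions, 148 were in exon 2 (22.9%, 19.7 to 26.3%), against 19.3% by an equal chance for each internal exon. The last internal exon held 141 (21.8%, 18.7 to 25.2%), against the same 19.3%. In transcripts of 3 exons both are the same exon. In transcripts of 6 or more exons, where the second and the last internal exon are well apart, 77 of 520 regions were in exon 2 (14.8%, 11.9 to 18.2%), where an equal chance for each internal exon gave 9.58%. Exons 3, 4 and 5 held 49, 51 and 47 regions, each close to the 49.8 of an equal chance, and exon 6 held 32 against 41.1. From the other end, the internal exon next to the last held 57 regions (11.0%, 8.41 to 14.0%) and the one before it 63 (12.1%, 9.44 to 15.2%), with 49.8 by an equal chance for either. The interval of exon 2 lay above its equal-chance value, and those of the last 2 internal exons included theirs. By relative place, the middle part of the internal exons held 23.7% of the 520 regions (20.1 to 27.5%), against 29.9% by an equal chance. The 5′ part held 40.6% (36.3 to 44.9%) against 37.0%, and the 3′ part 35.8% (31.6 to 40.1%) against 33.0%. Both of these intervals included the equal-chance value. These are descriptions without a test, and exon length was not held fixed.

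**Figure D2:**
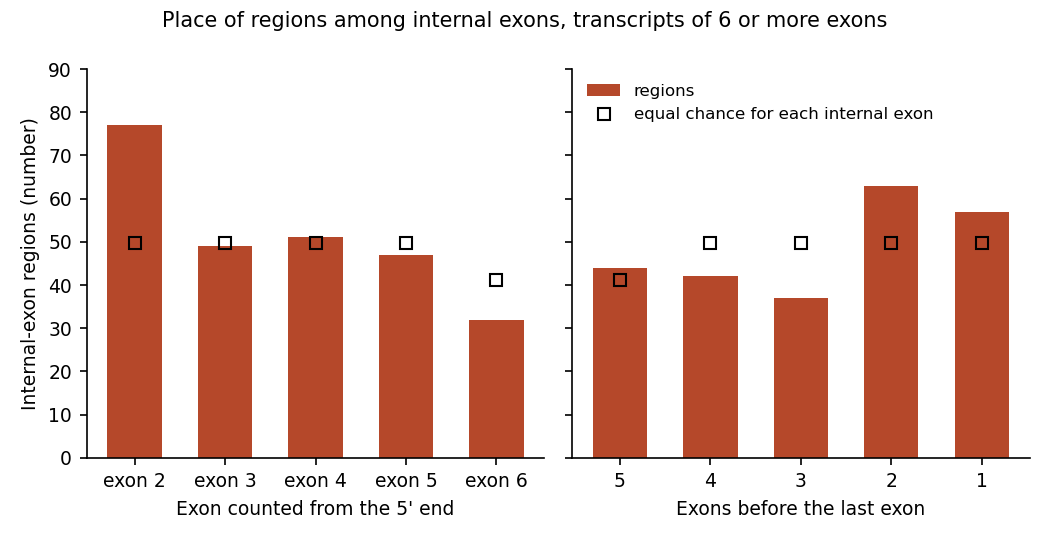
Number of internal-exon regions (vertical axis) by exon counted from the 5′ end (left) and by the number of exons before the last (right), in transcripts of 6 or more exons. Bars are the 520 regions' counts and open squares the number for an equal chance of each internal exon. Exon 2 stands at 77 against 49.8, and the last 2 internal exons at 63 and 57.

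Internal-exon regions lay along most of the gene body, with more of their centres in its 3′ part. The gene body is the whole locus with introns, and where internal exons lie along it was not computed. Intron lengths therefore enter these positions, and no preference among exons can be read from them. The orientation of the host gene was known for 589 of the 647 regions (91.0%). Their centres had a median position of 60.8% of the gene body from the 5′ end (quartiles 37.6 and 80.9%), and all 589 were inside it. Last-exon regions of transcripts with at least 3 exons had a median of 90.1% (quartiles 77.1 and 95.7%, n = 710), a difference that the choice by exon fixes in part. The final 10% of the gene body held 57 internal-exon regions (9.68%), against 356 last-exon regions (50.1%). The stretch between 80 and 90% held the most internal-exon regions, 99 (16.8%), and the first 10% held 30 (5.09%). SMG6, an endonuclease of nonsense-mediated decay, had its region at 1.57% of the gene body in exon 2 of 19. BMPR2, a BMP receptor, had its region at 93.8% in exon 12 of 13.

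**Figure D3:**
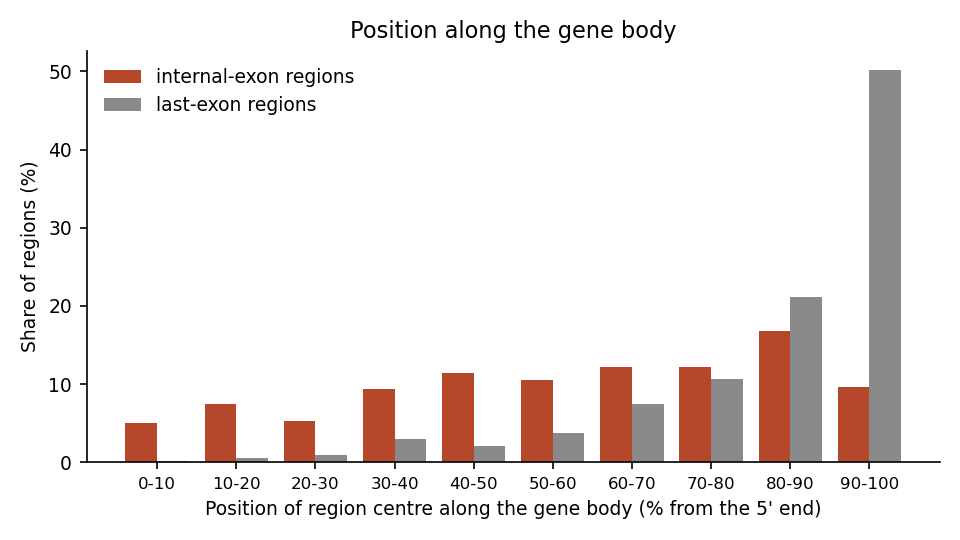
Share of regions (vertical axis, %) by position of the region centre along the gene body in steps of 10% from the 5′ end (horizontal axis), for 589 internal-exon and 710 last-exon regions. Internal-exon regions are spread between 5.09 and 16.8% a step, and last-exon regions rise to 50.1% in the final step.

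Internal-exon regions were mostly between 1 and 2 kb wide. Their median width was 1293 bp (quartiles 1005 and 1880.5 bp, range 473 to 32762 bp), 158 were under 1 kb and 7 were over 5 kb. Width does not give the length of the exon, since a region can run into the neighbouring introns or exons. Regions in exon 2 had a median of 1221.5 bp and those in later internal exons 1308 bp. Of the internal-exon regions 141 of 647 were over 2 kb (21.8%, 18.7 to 25.2%), and of the last-exon regions 170 of 801 (21.2%, 18.4 to 24.2%). That difference of 0.57 percentage points did not pass the test (Fisher's exact test, two-sided, adjusted p = 0.797 over 2 tests). Against last-exon regions outside ZNF zinc finger genes, the shares were 21.8% and 15.1% (adjusted Fisher's exact p = 0.00313). All 647 internal-exon regions stayed in that comparison, including 25 in ZNF genes. With a threshold of 1.5 kb the shares were 36.5% and 41.2%, a difference in the other direction (adjusted Fisher's exact p = 0.0738). Each adjustment covered the 2 tests of its own setting and not the other settings tried. The deposited detailed annotation repeated the exon for all 647 members and so gave no repeat class for any of them.

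The widest members were few and stood far from the rest. PHACTR2, a phosphatase and actin regulator, had a region of 32762 bp centred in exon 10 of 12, at chromosome 6, positions 143772395 to 143805156. BAZ2B, a bromodomain chromatin protein, had 1 of 22432 bp in exon 17 of 37, and KIF20B, a mitotic kinesin, 1 of 18315 bp in exon 20 of 33. MDN1, an AAA-type ATPase of ribosome assembly, had 9421 bp around exon 86 of 102, and TRAF3IP1, a ciliary transport protein, 7582 bp around exon 5 of 17. BAZ2B held 9 regions in all, 7 of them centred in introns. The members farthest downstream of a start site were those of ADGRV1, an adhesion receptor of hair cells (252066 bp, exon 74 of 90), and of PCLO and the potassium channel gene KCNJ6 (201445 bp, exon 3 of 4).

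Each host gene usually had a single internal-exon region. The transcripts of 645 regions matched the gene table, and these fell in 594 protein-coding genes, 2.96% of the 20052 in the table (the background for the counts of genes below). Of the hosts, 548 held 1 internal-exon region, 44 held 2, ZNF638 held 3 and PCLO 6. PCLO encodes piccolo, a giant scaffold of the presynaptic active zone. Its 6 regions took exons 2, 3, 4, 5, 6 and 7 of 20 in turn, on chromosome 7. That of exon 2 spanned positions 83154978 to 83156588 (1611 bp) and lay at 1.74% of the gene body, and that of exon 7 spanned 82914834 to 82916876 (2043 bp) and lay at 60.4%. The other four were 996 to 1612 bp wide. PCLO held 8 regions in all, and the other 2 were centred in introns. ZNF638, a zinc finger protein that binds RNA, had regions in exons 2, 22 and 24 of 28, between 836 and 1951 bp wide.

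In 10 genes, 2 separate regions were centred in the same internal exon. The distance between their centres then sets a lower limit on the length of that exon, as no transcript models were used here. It was 4107 bp in exon 13 of 15 of MKI67, which encodes the proliferation marker Ki-67, with regions of 1376 and 1469 bp and a gap of 2685 bp between them. It was 4002 bp in exon 57 of 174 of MUC19, a gel-forming mucin gene, 3188 bp in exon 4 of 6 of RESF1, a retroelement silencing factor, and 3134 bp in exon 4 of 6 of MAP1A, a microtubule-associated protein. PRDM2, a PR-domain zinc finger protein, had 2931 bp in exon 8 of 9. GOLGA4, a golgin, had 2650 bp in exon 14 of 24. ARHGAP5, a GTPase-activating protein, had 2319 bp in exon 2 of 7. ZFHX4, a zinc finger homeobox factor, had 2133 bp in exon 10 of 11. ZNF142 had 1812 bp in exon 7 of 9, and TRANK1 had 1665 bp in exon 21 of 23. The exons of these pairs lay near the start, in the middle and near the end of their transcripts, with no single place shared.

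The other 36 genes with several members held them in different exons or annotated transcripts. In 13 of the 36 genes the exons were next to each other in 1 transcript. CENPF, a kinetochore protein, had regions of 3441 and 2785 bp in exons 12 and 13 of 20. GOLGB1, which encodes the Golgi tether giantin, had regions of 2552 and 1783 bp in exons 12 and 13 of 21. BRCA2, the recombination mediator, had regions of 1048 and 1029 bp in exons 10 and 11 of 27. PALB2, its binding partner, had regions of 1723 and 1170 bp in exons 4 and 5 of 13. In other genes the exons were not adjacent. AKAP9, a centrosomal and Golgi anchoring protein, had them in exons 6 and 8 of 50 (3258 and 2105 bp). Some lay far apart, such as the regions of FAT1, an atypical cadherin, at 12.9% and 76.1% of the gene body in exons 2 and 10 of 27. Other genes with 2 members included ADGRF3, ALPK2, ALPK3, ANO8, ARHGAP39, CASP8AP2, CECR2, CSPG4, DST, FAT4, GRM4, KDM3B, KMT2B, KMT2C, MBD5, MGA, MTCL1, NCOA6, NYAP1, NYNRIN, PLEKHG4B, PRAG1, TNRC18, TRIOBP, TTN, ZC3H13 and ZNF516. TTN, which encodes titin, gave the longest transcript, with centres in exon 182 of 363 and, in another named transcript, exon 155 of 192. SYNE2, a nuclear envelope spectrin-repeat protein with 1 member, had it in exon 48 of 116. Members of 1 gene share its transcripts, so they are not independent.

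**Figure D4:**
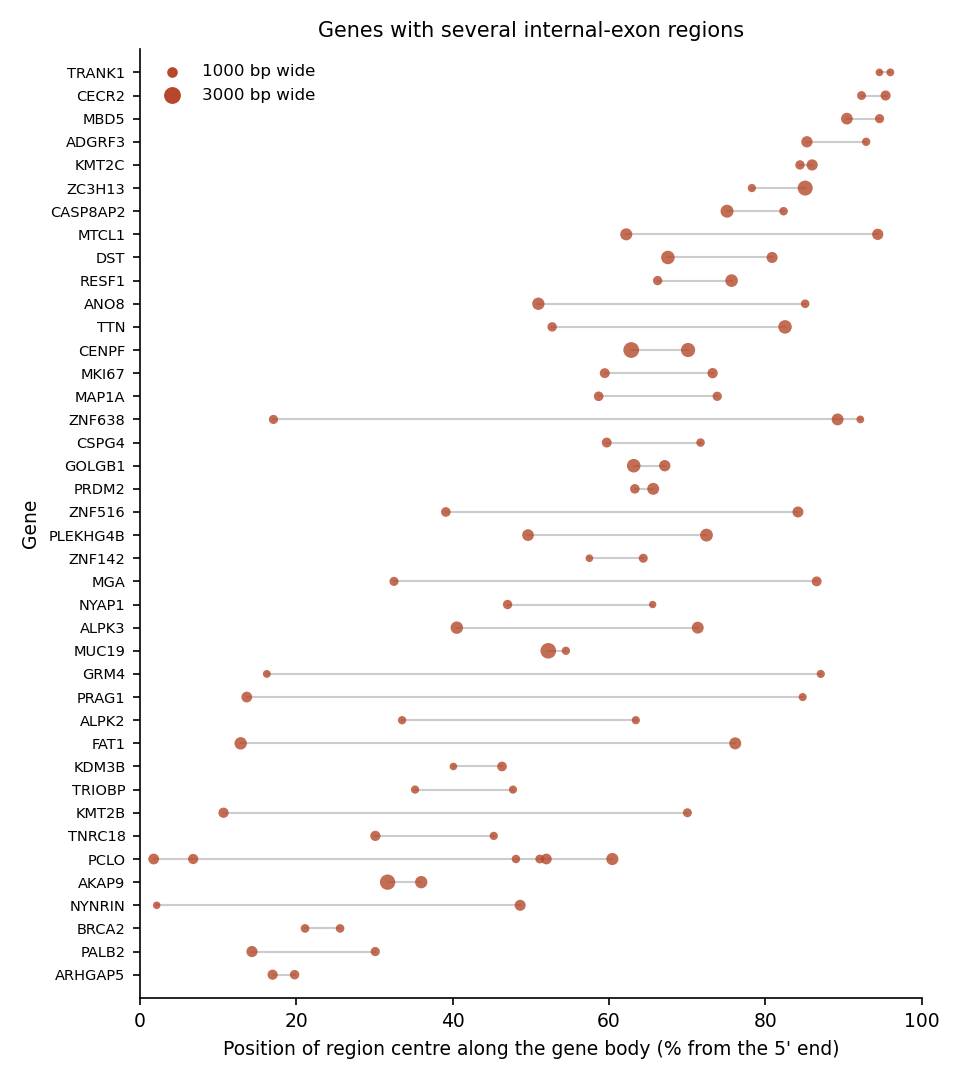
Position of each region centre along the gene body (horizontal axis, % from the 5′ end) in the 40 genes with 2 or more internal-exon regions and a known orientation (vertical axis, by symbol). Point area follows region width and grey lines join the regions of 1 gene. PCLO spans 1.74 to 60.4% with 6 points, and 25 of the 40 genes have all their regions within 20% of the gene body.

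A further region was present more often in genes with an internal-exon region than in genes with a last-exon region. Of 546 genes with the first kind and not the second, 256 held a further region of any kind (46.9%, 42.6 to 51.2%), and of 735 genes with the second and not the first, 212 did (28.8%, 25.6 to 32.3%). The odds ratio was 2.18, a difference of 18.0 percentage points (Fisher's exact test, two-sided, adjusted p = 8.59e-11 over 2 tests). An intronic region was present in 35.5% and 21.8% of these genes, and a region centred in the 3′ UTR in 7.14% and 2.72%. A promoter region was present in 2.75% and 2.72%. A second internal-exon region was present in 41 of the 546 hosts of internal-exon regions and a second last-exon region in 11 of the 735 hosts of last-exon regions. Hosts of the second kind were counted from last exons of transcripts with at least 3 exons, and genes with both kinds were left out. A last-exon region by a shorter transcript was present in 1 of the 546. Hosts of internal-exon regions were longer genes, with a median gene body of 63993 bp, against 29181 bp for hosts of last-exon regions. Within the shortest class by gene body length, up to 24.7 kb, a further region was present in 23.3% and 19.0% of genes. It was present in 42.1% and 27.3% in the middle class and in 61.1% and 48.6% in the longest. Gene length moved with the result, and its part in the result was not tested. Both kinds were present in 48 genes.

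Genes of the m6A pathway itself were hosts in 6 of 26 cases (23.1%, 8.97 to 43.6%), where 2.96% of all protein-coding genes were. Lists here were chosen with earlier results of these data known, so their shares are descriptions. ZC3H13, a scaffold of the methyltransferase complex, had regions in exons 12 and 14 of 17 (945 and 3107 bp), and VIRMA, another subunit, a region of 1055 bp in exon 8 of 13. The 3 cytoplasmic YTHDF readers each had 1 region in the internal exon next to the last. YTHDF1 had 1332 bp in exon 4 of 5, YTHDF2 had 1637 bp in exon 4 of 5, and YTHDF3 had 1559 bp in exon 5 of 6. The reader PRRC2A had a region of 2091 bp in exon 16 of 31.

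The 4 lists of chromatin and transcription genes had shares between 20 and 27.3%, where 2.96% of all protein-coding genes were hosts. These lists too were chosen with earlier results known, so the shares are descriptions. Histone lysine methyltransferases and demethylases were hosts in 12 of 44 cases (27.3%, 15.0 to 42.8%) with 15 regions in all. KMT2B, a trithorax-type methyltransferase, held regions in exons 3 and 28 of 37. KMT2C held them in exons 36 and 38 of 59, KDM3B, a demethylase, in exons 7 and 8 of 24, and KMT2A had 1 of 1919 bp in exon 27 of 36. Chromatin remodelers were hosts in 9 of 35 cases (25.7%, 12.5 to 43.3%), among them CECR2 with regions in exons 16 and 17 of 19, EP400 with 4878 bp in exon 23 of 53, BPTF with 2081 bp in exon 13 of 30, and BAZ2B. Coregulators and acetyltransferases were hosts in 6 of 26 cases (23.1%). NCOA6, a nuclear receptor coactivator, had regions in exons 7 and 11 of 15, and BRD3 and BCORL1 had 1 each. Large zinc finger and homeobox factors were hosts in 5 of 25 cases (20%). These included PRDM2, ZFHX4, ZHX1 with 2863 bp in exon 3 of 4, and RREB1 with 2058 bp in exon 10 of 12.

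The lists of genome maintenance, mitosis and centrosome genes, chosen in the same way, had shares between 26.7 and 31.6%, beside 2.96% of all protein-coding genes. Of 30 DNA damage response genes, 8 were hosts (26.7%, 12.3 to 45.9%). RIF1, a replication timing and repair factor, had 2738 bp in exon 30 of 35 and MSH6, a mismatch repair protein, 2677 bp in exon 2 of 8, beside PALB2 and BRCA2. Of 24 kinetochore and mitosis genes, 7 were hosts (29.2%, 12.6 to 51.1%), with a median width of 2672 bp over 9 regions. SGO2, a shugoshin that protects centromeric cohesion, had 2950 bp in exon 7 of 9, beside CENPF, MKI67 and KIF20B. Of 19 centrosome genes 6 were hosts (31.6%, 12.6 to 56.6%), among them AKAP9, CEP250 with 3205 bp in exon 28 of 33, NIN with 2081 bp in exon 18 of 31 and NINL with 1183 bp in exon 17 of 24.

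Lists of very large proteins, chosen in the same way, had shares between 20 and 35.3%. The FAT, Dachsous and CELSR cadherins and presynaptic scaffolds had the highest share of the 19 lists, 6 of 17 (35.3%, 14.2 to 61.7%), with 13 regions. PCLO accounted for 6 of them, FAT4 for 2 (exons 5 and 9 of 17, with 3715 bp around exon 9), FAT1 for 2 and FAT3 for 1 of 3091 bp in exon 2 of 28. Giant cytoskeletal linkers were hosts in 7 of 25 cases (28%, 12.1 to 49.4%). DST, a spectraplakin, had regions of 2534 and 1704 bp, and DSP, which encodes desmoplakin, had 2465 bp in exon 23 of 24. Ubiquitin ligases and other giant proteins were hosts in 4 of 20 cases (20%). RANBP2, a nucleoporin with SUMO ligase activity, had 4806 bp in exon 20 of 29. MYCBP2, BIRC6 and TRIP12 had regions of 1279, 1155 and 751 bp.

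Signalling, RNA and stem cell lists had shares between 6.67 and 13.3%. Core and primed pluripotency genes were hosts in 4 of 32 cases (12.5%, 3.51 to 29.0%). SALL4, a spalt-type transcription factor, had 1607 bp in exon 2 of 4. FOXO1, a forkhead factor, had 2378 bp in exon 2 of 3, JARID2, a Polycomb cofactor, 1287 bp in exon 7 of 18, and L1TD1, an RNA-binding protein derived from a LINE-1 element, 949 bp in exon 4 of 5. WNT genes were hosts in 4 of 32 cases (12.5%). They were the destruction complex scaffolds AXIN1 (1295 bp, exon 6 of 10) and AXIN2 (935 bp, exon 2 of 11), the coactivator BCL9 and the receptor-removing ubiquitin ligase ZNRF3 (2739 bp, exon 8 of 9). TGF-beta, NODAL and BMP genes were hosts in 2 of 30 cases (6.67%, 0.818 to 22.1%), BMPR2 and the SMAD corepressor SKIL. Genes of RNA silencing, decay and translation initiation were hosts in 4 of 30 cases (13.3%, 3.76 to 30.7%). The 3 TNRC6 paralogs, Argonaute partners in microRNA silencing, each held 1, TNRC6A in exon 6 of 24 (2575 bp), TNRC6B in exon 5 of 23 (1228 bp) and TNRC6C in exon 4 of 22 (752 bp). SR proteins and hnRNPs were hosts in 2 of 26 cases (7.69%), SON and SRSF5. The intervals of the SR protein and hnRNP list and of the TGF-beta list included 2.96%, and no list was tested against that value.

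None of the 34 listed cytosolic ribosomal protein genes (upper bound 10.3%), 22 genes of primordial germ cell specification (15.4%) or 19 glycolysis genes (17.6%) was a host. These upper bounds all lie above the 2.96% of all genes, so lists of these sizes could not show a lower share. RPL41, a ribosomal protein gene outside the ribosomal list, was a host. Over all lists, 92 of 511 genes were hosts (18.0%), and of the protein-coding genes on no list 502 of 19541 were (2.57%). The choice of lists with earlier results known can set this contrast by itself, so it is a description only. Exon length, protein size and RNA level were not held fixed in any of these shares.

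**Figure D5:**
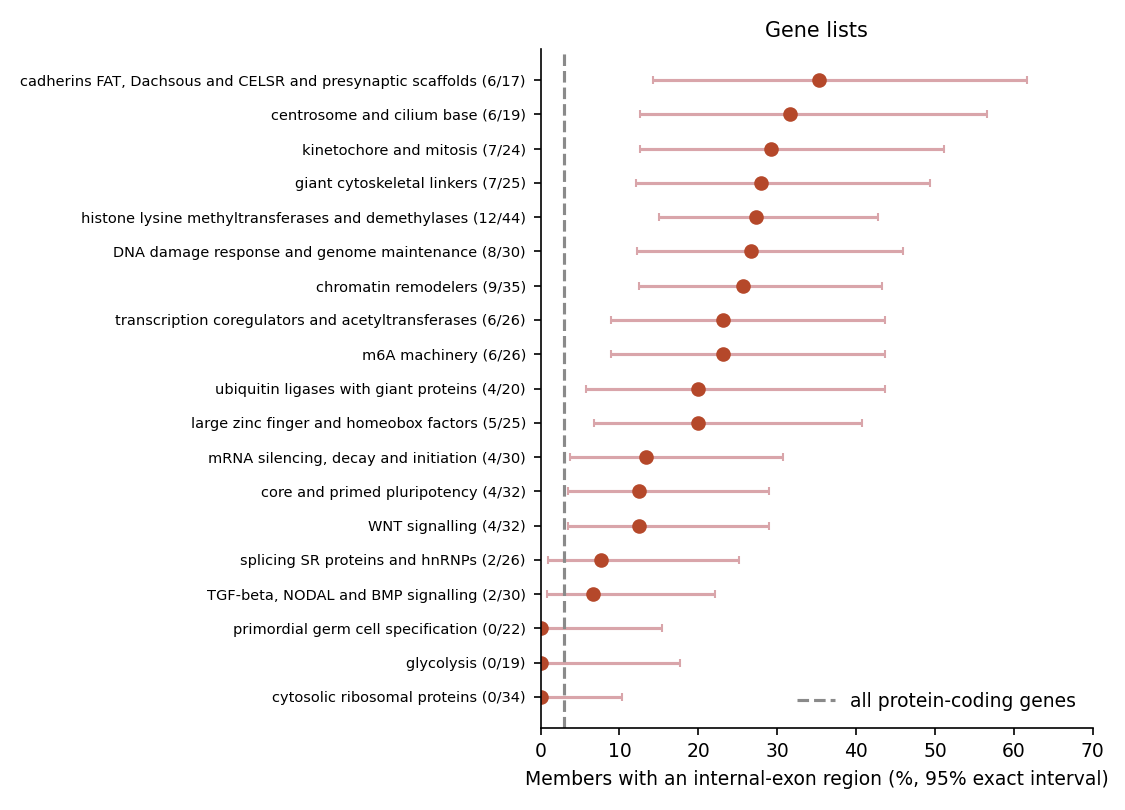
Percent of list members with an internal-exon region (horizontal axis, points with 95% exact intervals) for the 19 gene lists (vertical axis, hosts over members in brackets). The dashed line is the 2.96% of all protein-coding genes. Cadherins and scaffolds stand highest at 35.3%, and the ribosomal protein, glycolysis and germ cell specification lists stand at 0.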

How the data were processed

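m6A-seq was done on wild-type H1 cells, with 2 pull-down and 2 input libraries by their titles. Per the submitters' processing notes, hg38 was the genome and the tools were HISAT2 2.2.1, MACS2 2.2.7.1, HOMER, bedtools 2.30.0, Trim Galore 0.6.7 and SAMtools 1.6; their settings and order are not given in the sources used. The authors deposited 1 intersected set of region positions in base pairs and a HOMER annotation of their centres. Its score column was 0 throughout and was not used. Depth per library is unknown.

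Exon number and count were read from the annotation. Host genes came from the named transcript through RefSeq's GRCh38.p14 genes (645 of 647 matched), and orientation came from the RefSeq promoter table (535 regions) or, within 1 kb of a gene boundary, the deposited start-site distance (54). The equal-chance value is the exact expectation with each exon weighted alike. Fisher's exact test (scipy 1.17.1, two-sided, threshold 0.05) was adjusted by Benjamini-Hochberg over 2 tests and treats regions or genes as independent. The counting was tested on simulated annotations. The members and lists were chosen with earlier results of these data known. Named genes were those with 2 or more members, up to 4 hosts per list, and the hosts of the 5 widest regions, of the 5 farthest downstream and of the 5 in transcripts with most exons. Some genes that this rule names are not reported here. VIRMA, YTHDF1, PABPN1, SLC8A1, PCDH11X and RPL41 were chosen after their values were seen. No genome sequence or transcript models were used, so exon lengths and the DRACH motif in regions were not analysed here.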

Additional observations from a re-analysis of the deposited data

How the results depend on the processing

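The results were recomputed with regions up to 2 kb, with regions of at least 1000 bp, with regions at most 2 kb apart merged, in transcripts of at least 6 exons, with matched transcripts only, with 1 region per gene, with hosts named by the nearest start site and with changes to each comparison. Of 50 such values, 42 were classed as the same as the main value, 6 as moved, 1 as reversed and 1 as stronger. Only the comparisons with Fisher's exact test were classed by direction and by the side of the test threshold. Values without a test were classed by their distance from the main value. For example, 453 host genes with regions of at least 1000 bp, against 594 in the main setting, counted as the same. In transcripts of at least 6 exons the internal share was 54.1%, the share in exon 2 was 14.8% and that in the last internal exon 11.0%. In the main setting these were 42.2%, 22.9% and 21.8%. The equal-chance value for either exon was 9.58% in transcripts of at least 6 exons and 19.3% in the main setting. The cause of these moves was not tested. The median width was 1472 bp with regions of at least 1000 bp and 1172.5 bp with regions up to 2 kb, as the limits themselves dictate. Naming hosts by the nearest start site gave 52 list genes in place of 92. The difference in the share over 2 kb was 6.73 points against last exons outside ZNF genes and -4.72 with a threshold of 1.5 kb. The cause was not tested. With regions up to 2 kb that comparison has no value. The difference in further regions was 9.90 to 18.9 points over its 8 alternatives and passed in each. No paired analysis was possible because the files held no values per library. A stricter score, leaving out a replicate and exon length could not be tried with these files.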

Other observations

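The place of coding regions differed among chromosomes. On chromosome 19, 38 of 194 coding regions with at least 3 exons in the transcript were internal (19.6%), on chromosome 2, 64 of 101 (63.4%), and on chromosome 14, 30 of 48 (62.5%). By gene, hosts of internal-exon regions were 36 of 1451 protein-coding genes on chromosome 19 (2.48%, 1.74 to 3.42%), 58 of 1254 on chromosome 2 (4.63%, 3.53 to 5.94%) and 11 of 848 on the X chromosome (1.30%, 0.649 to 2.31%). No test was made between chromosomes.

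Families by symbol, chosen after values were seen, are given as shares of their members. ZNF genes were hosts in 21 of 517 cases (4.06%, 2.53 to 6.14%) and protocadherins in 1 of 66 (1.52%, 0.0384 to 8.16%), PCDH11X. Genes whose symbol begins with CEP and a number were hosts in 6 of 39 cases (15.4%, 5.86 to 30.5%). Of 3 alpha kinase genes with an ALPK symbol, ALPK2 and ALPK3 were hosts. RPL41, a ribosomal protein gene that was not on the ribosomal list, had 1 region of 1116 bp in exon 3 of 4.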
